A study of Homo sapiens with 2 samples.

Results

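The barcodes described here were those of 5 breast cancer cell lines in which mitochondrial transcripts made up more than 20% of the gene UMIs. A UMI is a molecular tag that counts a captured RNA molecule 1 time, and a barcode stands for a droplet that was called as a cell. The deposited matrix held 17605 barcodes with suffixes 1 to 6, and suffixes 2 to 6 held 14651 of them. Within these 5 suffixes, 1371 barcodes (9.36%) had over 20% of their gene UMIs in the 13 genes with the prefix MT- and are called high-MT barcodes. The other 13280 barcodes of the same suffixes, at 20% or less, are called low-MT barcodes. Each suffix was compared with itself only, and all other genes were expressed as UMIs per 1000000 UMIs outside the MT- genes (CPM). The members were thus chosen by their measured mitochondrial share, so that share and the mitochondrial UMIs are given as a description. The non-mitochondrial total is the other part of that share, so depth is also in part fixed by the rule.

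The 6 breast cancer cell lines were run as 2 pools, BT-474 with MDA-MB-453 and MDA-MB-231 in the first, and HCC38, Hs578T and MDA-MB-436 together in the other. Each line was detached, strained and labelled with its own lipid-anchored oligo before pooling, and 15000 cells per pool were loaded on a droplet 3′ chip. The labels name no treatment and 1 culture of each line, so the 5 lines are not replicates of each other and no test across samples was possible. MDA-MB-453 is a luminal line, and the other 4 lines considered here lack the receptors that define luminal and HER2 disease (triple-negative). Since no label ties an oligo to a line, each suffix was named from marker genes in its low-MT barcodes. Suffix 2 led 4 of the 5 MDA-MB-231 markers, suffix 3 led 4 of the 5 MDA-MB-453 markers and suffix 4 led 4 of the 5 HCC38 markers. Suffix 5 led all 7 Hs578T markers and suffix 6 all 5 MDA-MB-436 markers. Suffixes 3 and 6 also led 1 marker of another line each, SFN of the HCC38 list and MMP1 of the MDA-MB-231 list. The suffixes are therefore called MDA-MB-231-like, MDA-MB-453-like, HCC38-like, Hs578T-like and MDA-MB-436-like.

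A cell whose outer membrane leaks loses soluble RNA of the cytosol, whereas RNA inside mitochondria and RNA held in the nucleus is enclosed by further membranes. A high mitochondrial share is therefore widely used as a sign of a damaged cell, and a high level of nuclear RNAs such as MALAT1 as a sign of a stripped nucleus. Messenger RNAs of secreted and membrane proteins are translated on the endoplasmic reticulum, a membrane system continuous with the nuclear envelope, and those of ribosomal proteins are translated on free ribosomes. The mitochondrial share does not by itself show damage, and no viability stain or other measure of membrane integrity was used here.

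High-MT barcodes numbered 185 of 3127 in the MDA-MB-231-like suffix, 257 of 3708 in the MDA-MB-453-like suffix and 101 of 2670 in the HCC38-like suffix. There were 299 of 2288 in the Hs578T-like suffix and 529 of 2858 in the MDA-MB-436-like suffix. The share was thus between 3.78% (95% Clopper-Pearson interval 3.09 to 4.58) in the HCC38-like and 18.5% (17.1 to 19.98) in the MDA-MB-436-like suffix. All intervals here cover counting error only and not the variation between cultures. Of the 1371 high-MT barcodes, 191 had under 1000 UMIs or under 500 genes, against 6 of the low-MT barcodes. Together, the oligos other than the highest made up over 10% of oligo UMIs in 468 of 1371 high-MT and 2449 of 13280 low-MT barcodes. The share of such barcodes was higher among high-MT barcodes of each line, with 164 of 299 against 766 of 1989 in the Hs578T-like suffix. Barcode sequences were shared between suffixes in 22 cases, never within a capture, and 2 high-MT barcodes were among them.

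Near the threshold, the 58 barcodes between 18 and 20% had a median of 17778.5 non-mitochondrial UMIs and 2.14% of them in MALAT1, and the 40 barcodes between 20 and 22% had 14029.5 and 3.49%. In single lines, on 3 to 30 barcodes a side, the MALAT1 share was 1.63 and 2.71% in MDA-MB-231-like, 2.35 and 2.82% in MDA-MB-453-like and 3.00 and 8.99% in HCC38-like barcodes. It was 0.747 and 2.40% in Hs578T-like and 1.87 and 3.36% in MDA-MB-436-like barcodes, where the non-mitochondrial UMIs were 19654 and 8549. Blood and endothelial markers, which the cultures should lack, were at or near 0 in high-MT barcodes. The leukocyte antigen PTPRC had 0 UMIs, and over the list only CD68, which tumour lines also express, had more than 8, with 130. CD68 reached at most 37.9 CPM in high-MT and 70.2 CPM in low-MT barcodes of a line.

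High-MT barcodes held far fewer non-mitochondrial UMIs than low-MT barcodes of the same line, while medians of oligo UMIs and of MALAT1 UMIs differed much less. The median number of non-mitochondrial UMIs was 24592 in low-MT and 1428 in high-MT MDA-MB-231-like barcodes, a 17.2-fold difference. It was 18326 and 2606 in MDA-MB-453-like barcodes (7.03-fold) and 32271 and 2505 in HCC38-like barcodes (12.9-fold). It was 35791 and 3394 in Hs578T-like barcodes (10.5-fold) and 27778 and 2127 in MDA-MB-436-like barcodes (13.1-fold). Mitochondrial UMIs per barcode, in contrast, had medians 1.18 to 1.49 times those of low-MT barcodes. Both quantities enter the rule, so these values describe how the members were chosen.

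The multiplexing oligos sit in the outer membrane and were not used by the rule. Their median per high-MT barcode was 8272 against 7397 in MDA-MB-231-like, 10210 against 10216 in MDA-MB-453-like and 9253 against 9429 in HCC38-like barcodes. It was 6157 against 4426 in Hs578T-like and 8795 against 8224 in MDA-MB-436-like barcodes. The ratio of high-MT to low-MT medians lay between 0.981 and 1.39, and the quartile ranges of the classes overlapped in each line. The highest oligo differed from that of the suffix in 0 barcodes, so the suffixes follow the oligos, and barcodes with too little label to be assigned may not be among the members.

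**Figure D1:**
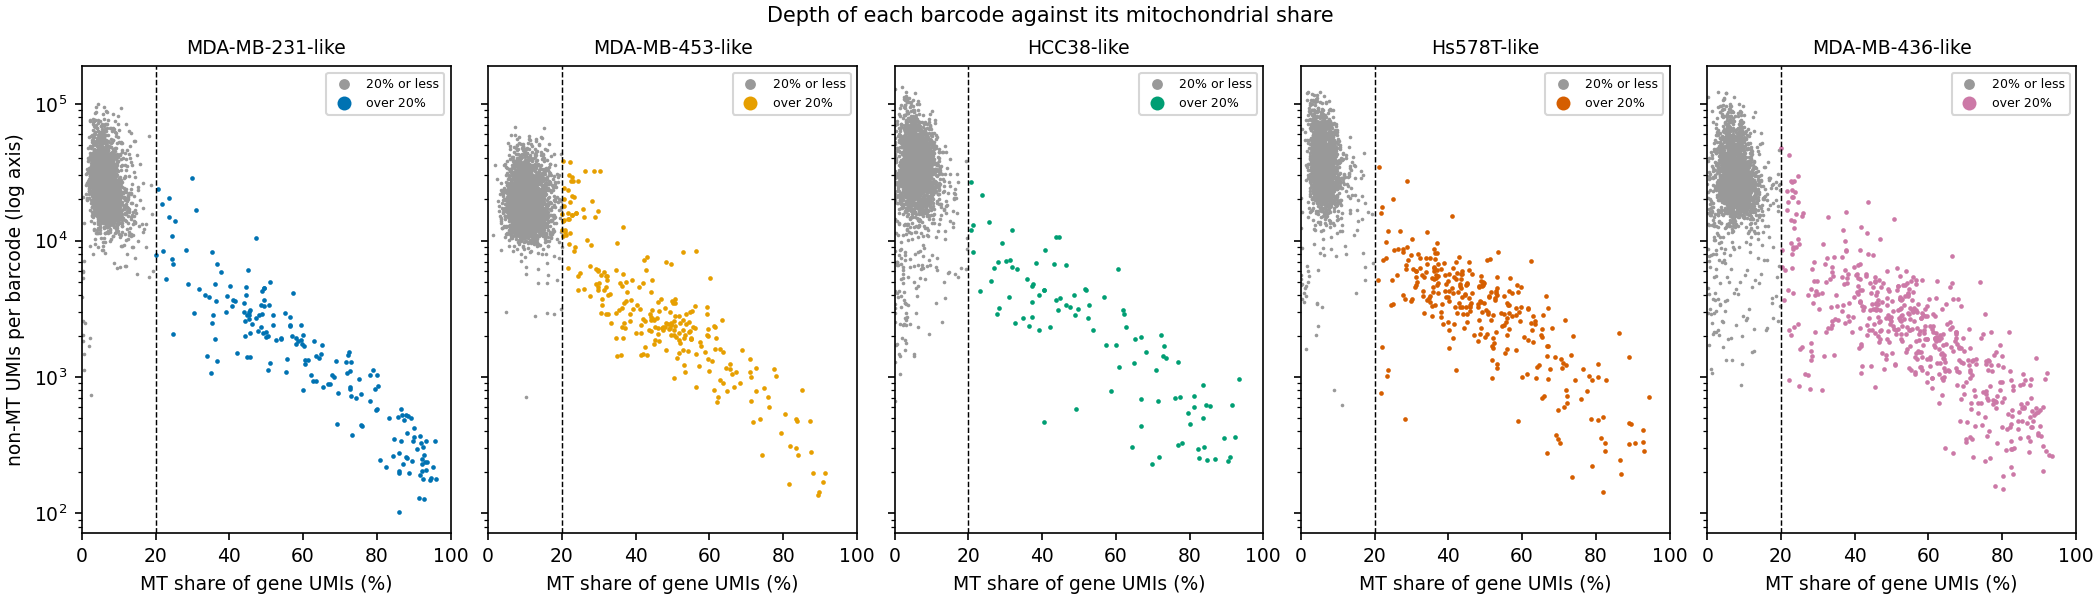
Non-mitochondrial UMIs per barcode (log axis) against the mitochondrial share of gene UMIs in percent, 1 panel per line, with 1 point per barcode and the dashed line at 20%. Coloured high-MT barcodes fall steadily from the threshold to the right end, with medians between 1428 and 3394, while grey low-MT barcodes have medians between 18326 and 35791.

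Fewer genes were detected in high-MT barcodes at the deposited depth, and more at equal depth. Median genes per barcode were 945 against 5450.5 in MDA-MB-231-like, 1634 against 4839 in MDA-MB-453-like and 1566 against 6408 in HCC38-like barcodes. They were 2078 against 6478 in Hs578T-like and 1442 against 5807 in MDA-MB-436-like barcodes. When each barcode was thinned to 2000 non-mitochondrial UMIs, the order turned in all 5 lines. High-MT medians were then 1257, 1285.5, 1342, 1375 and 1369 genes in suffixes 2 to 6, and low-MT medians 1189, 1205, 1241, 1186.5 and 1178. The quartile ranges of the classes did not overlap in the Hs578T-like and MDA-MB-436-like suffixes and overlapped in the other 3. Thinning left out 112, 83, 44, 82 and 248 high-MT barcodes that were shallower, so these values describe the deeper high-MT barcodes only.

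MALAT1 (chromosome 11, positions 65497688 to 65506516 on the plus strand of GRCh38) is a long noncoding RNA of nuclear speckles. Per barcode, its median count was 149 UMIs in high-MT and 243 in low-MT MDA-MB-231-like barcodes, 282 and 251 in MDA-MB-453-like, and 251 and 363 in HCC38-like barcodes. It was 207 and 184 in Hs578T-like and 100 and 158 in MDA-MB-436-like barcodes. The high-MT median was thus 0.613 to 1.13 times the low-MT median, higher in 2 lines and lower in 3, with overlapping quartile ranges in each line. Messenger RNAs of cytosolic ribosomal proteins gave the opposite picture, with medians of 80 against 4544 UMIs in MDA-MB-231-like and 100 against 3461 in MDA-MB-453-like barcodes. The medians were 107 against 4934 in HCC38-like, 181 against 6379 in Hs578T-like and 143 against 5433 in MDA-MB-436-like barcodes. The ribosomal protein UMIs per barcode were therefore 34.6- to 56.8-fold lower, a wider gap than that of the whole non-mitochondrial total in every line.

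Along the mitochondrial share, MALAT1 and the ribosomal protein transcripts followed different courses. From the lowest bin (0 to 5%) to the 30 to 50% bin, the median MALAT1 count went from 234 to 495 UMIs in MDA-MB-231-like, from 314 to 490 in MDA-MB-453-like and from 322 to 515 in HCC38-like barcodes. It went from 184 to 275 in Hs578T-like and from 192 to 225 in MDA-MB-436-like barcodes. Between these bins the median count did not rise steadily. In the 10 to 15% bin it was 217.5 in MDA-MB-453-like, 166 in Hs578T-like and 115 in MDA-MB-436-like barcodes. In the 20 to 30% bin it was 316 in MDA-MB-436-like barcodes. Over 80%, in the 3 lines with at least 20 such barcodes, it was 8, 4 and 6 UMIs in MDA-MB-231-like, Hs578T-like and MDA-MB-436-like barcodes. In counts, MALAT1 was thus retained in barcodes of intermediate share and nearly gone in those of the highest share. Over 80% the median of all non-mitochondrial UMIs was only 261.5, 409 and 521 in these 3 lines. As a share of them, MALAT1 held 6.59, 4.33 and 2.64% over 80%, against 1.05, 0.533 and 0.819% in the 0 to 5% bin. As a share of non-mitochondrial UMIs, ribosomal protein transcripts made up 15.7 to 20.1% in the 0 to 5% bin and 3.84 to 7.66% in the 30 to 50% bin. Over 80% the share was 14.6, 11.9 and 13.02% in the same 3 lines, nearer to that of low-MT barcodes. Their median counts there were 40.5, 52 and 67 UMIs, against 5102, 6964.5 and 5694 in the 0 to 5% bin.

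Transcripts of the other lines in the same capture also differed between the classes. Genes specific to a line were defined as at least 20-fold above every other line and at 50 CPM or more, which gave 10 to 106 genes per line. In low-MT barcodes, the specific genes of the other 2 lines of the capture stood at a summed 3.96 to 5.90% of their own level. In high-MT barcodes the sum was 17.7% in MDA-MB-231-like, 7.93% in MDA-MB-453-like, 19.2% in HCC38-like, 15.7% in Hs578T-like and 14.9% in MDA-MB-436-like barcodes. The 20-fold definition itself keeps the low-MT values low and does not limit the high-MT values. The difference between the classes is therefore in part set by that definition. Over 80% the sum was 70.1, 25.8 and 50.6% in MDA-MB-231-like, Hs578T-like and MDA-MB-436-like barcodes. It did not rise steadily in Hs578T-like barcodes, with 34.3, 8.20, 14.2 and 25.8% in the bins from 20 to 30% upward. In MDA-MB-453-like barcodes the bins of 20 to 30, 30 to 50 and 50 to 80% had 7.29, 9.01 and 7.93%. The part of RNA from other cells in the results was not tested. Leaving out all barcodes over 80% gave 1418 genes called higher and 322 called lower, against 1416 and 311 with them (the calls are defined below). Those barcodes supplied only 0.357 to 3.02% of the high-MT UMIs of a line, so leaving them out could change the summed counts little. It therefore does not show how far RNA from other cells enters the calls.

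**Figure D2:**
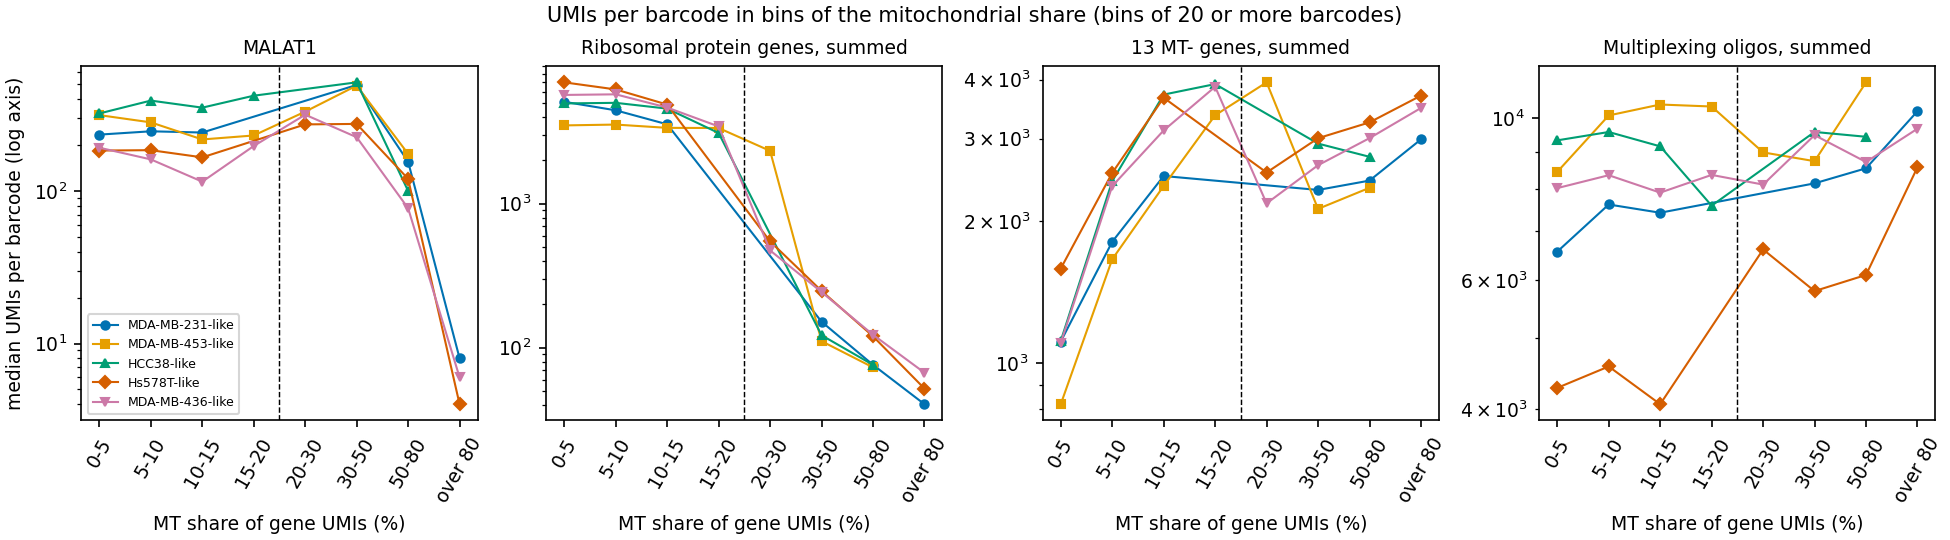
Median UMIs per barcode (log axes) for MALAT1, the summed ribosomal protein genes, the summed MT- genes and the summed multiplexing oligos, in bins of the mitochondrial share of gene UMIs (percent). Each colour is a line, points stand for bins of at least 20 barcodes, lines join neighbouring points across bins that hold fewer, and the dashed line marks 20%; MALAT1 is highest between 20 and 50% in all 5 lines and at 4 to 8 UMIs over 80%, while ribosomal protein UMIs go down from 10% on.

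A gene was compared in all 5 lines where the mean CPM of both classes was at least 10 in each, which held for 7047 genes. It was called higher or lower where the ratio of CPM + 1 was past 1.5-fold in the same direction in all 5 lines. By this rule 1416 genes (20.1% of those tested) were higher in high-MT barcodes and 311 (4.41%) were lower. The counting interval of the ratio lay above 1 in all 5 lines for 1267 of the 1416 and below 1 for 300 of the 311. The genes called higher held 4.83 to 7.01% of the non-mitochondrial UMIs of low-MT barcodes and 18.9 to 28.2% of those of high-MT barcodes. The genes called lower held 17.1 to 19.2% and 6.48 to 11.5%. At 2-fold, 624 genes (8.85%) were higher and 1 gene (0.0142%) was lower.

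The split between the directions depended on the scaling and on abundance. Over all 7047 genes the median log2 ratio was 0.25. With each line centred on the median of its genes tested, 978 genes were higher and 773 lower, so that 55.9% of the calls were higher instead of 82.0%. Among the 2149 genes at 50 CPM or more in each line, 224 were higher and 255 lower. In single lines, 42.1% of the 9370 genes tested were higher and 17.3% lower in MDA-MB-231-like barcodes. The values were 31.1 and 7.93% of 8923 in MDA-MB-453-like, 45.1 and 22.5% of 9936 in HCC38-like, 47.8 and 17.4% of 9620 in Hs578T-like and 45.4 and 13.8% of 9644 in MDA-MB-436-like barcodes.

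The MDA-MB-453-like suffix had the smallest differences, with the lowest ratio of the 5 lines for 1067 of the 1416 genes called higher and the ratio nearest 0 for 203 of the 311 called lower. Without it, 2161 genes were higher and 687 lower. Its high-MT set was also made up differently. Barcodes of 20 to 30% supplied 61.1% of its high-MT non-mitochondrial UMIs, and 23.0 to 36.8% in the other 4 lines. Counted over barcodes of 30 to 80% only, the MALAT1 log2 ratio of this suffix was 3.03 instead of 2.08, and the median of the ribosomal protein genes was -1.70 instead of -0.57. Over those barcodes all 5 lines together had 1986 genes higher and 986 lower.

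Nuclear RNAs formed the group with the highest ratios. Of 38 listed RNAs known to stay in the nucleus at least in part, 25 were tested, 19 were called higher (76.0%, against 20.1% of all genes) and 0 lower, with a median log2 ratio of 2.05. The list joins noncoding RNAs and messenger RNAs with retained introns, and it was drawn up with earlier results of these data known. MALAT1 stood at 110261 CPM in high-MT and 11835 CPM in low-MT MDA-MB-231-like barcodes, at 70120.1 and 16603 in MDA-MB-453-like and at 113604 and 13598 in HCC38-like barcodes. It stood at 65139.9 and 5883 CPM in Hs578T-like and at 56656 and 6860.1 in MDA-MB-436-like barcodes. All 5 high-MT values lay above all 5 low-MT values. The log2 ratio was between 2.08 and 3.47, with a median of 3.06.

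NEAT1 (chromosome 11, 65422774 to 65445540, plus strand), the noncoding RNA that builds paraspeckles in the nucleus, went the same way. It stood at 10444.5 and 1253 CPM in high-MT and low-MT MDA-MB-231-like barcodes, 11102 and 2384 in MDA-MB-453-like, 13885.5 and 1575 in HCC38-like, 19044 and 1916 in Hs578T-like and 24844 and 2748 in MDA-MB-436-like barcodes. Its log2 ratio had a median of 3.14 (2.22 to 3.31), again without overlap of the classes. FTX, a noncoding RNA of the X-inactivation centre, stood at 286 to 581 CPM in high-MT and 23.9 to 84.0 CPM in low-MT barcodes, with a median log2 ratio of 3.34.

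Further nuclear RNAs called higher were the noncoding LINC00342 (median log2 ratio 3.26) and PVT1 (2.54), and PSMA3-AS1 (2.05), an antisense transcript that cannot be told from its partner where counting ignores strand. Among messenger RNAs with retained introns, OGT, which codes for the enzyme that adds GlcNAc to nuclear and cytosolic proteins, had 2.85. CCNL1, a cyclin of the splicing machinery, had 2.75, NKTR 2.52 and the splicing kinase CLK1 1.88. TUG1 (1.57) and JPX (1.48) were also called higher. The members without a call were SON (1.12), DDX17 (1.02), NORAD (0.62), OIP5-AS1 (0.57), SRSF5 (0.34) and SRSF7 (0.18). NORAD acts mainly in the cytoplasm, and SRSF5 and SRSF7 code for splicing factors. Where the RNAs of this list lay in the cell was not measured, and its part in these differences was not tested.

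By class of gene in GENCODE 29, 67 of the 125 long noncoding RNAs tested were higher and 1 was lower, with a median log2 ratio of 1.48 (0.91 to 1.85 per line). Of 6920 protein-coding genes, 1348 were higher and 310 lower, with a median of 0.24. Many noncoding genes overlap or lie antisense to coding genes, and the strand setting of the counting is not given in the sources used here.

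Among the genes called higher, the highest median log2 ratios included copies of mitochondrial sequence and noncoding RNAs. MTRNR2L12 (chromosome 3, 96617188 to 96618236, minus strand) and MTRNR2L8 had 4.55 and 4.37. MTRNR2L12 stood at 1322 to 2526 CPM in high-MT and 56.7 to 207 CPM in low-MT barcodes. Both are nuclear genes nearly identical to the mitochondrial ribosomal RNA gene, so reads of the mitochondrial gene may be counted in them and their values go with the rule's own measure. They were followed by AC245060.5 (3.61), EID3 (3.50), LTB4R (3.40), PILRB (3.35) and Z83843.1 (3.35), then by SLC9A3-AS1 (3.31), NPIPB5 (3.29), ANKRD36C (3.24), AL158152.1 (3.24), AC004951.1 (3.17) and GOLGA8B (3.16). PILRB, NPIPB5, ANKRD36C and GOLGA8B have near-identical copies, and their values are uncertain for that reason. LTB4R, a leukotriene receptor, varied most, from 0.70 in HCC38-like to 3.77 in Hs578T-like barcodes.

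**Figure D3:**
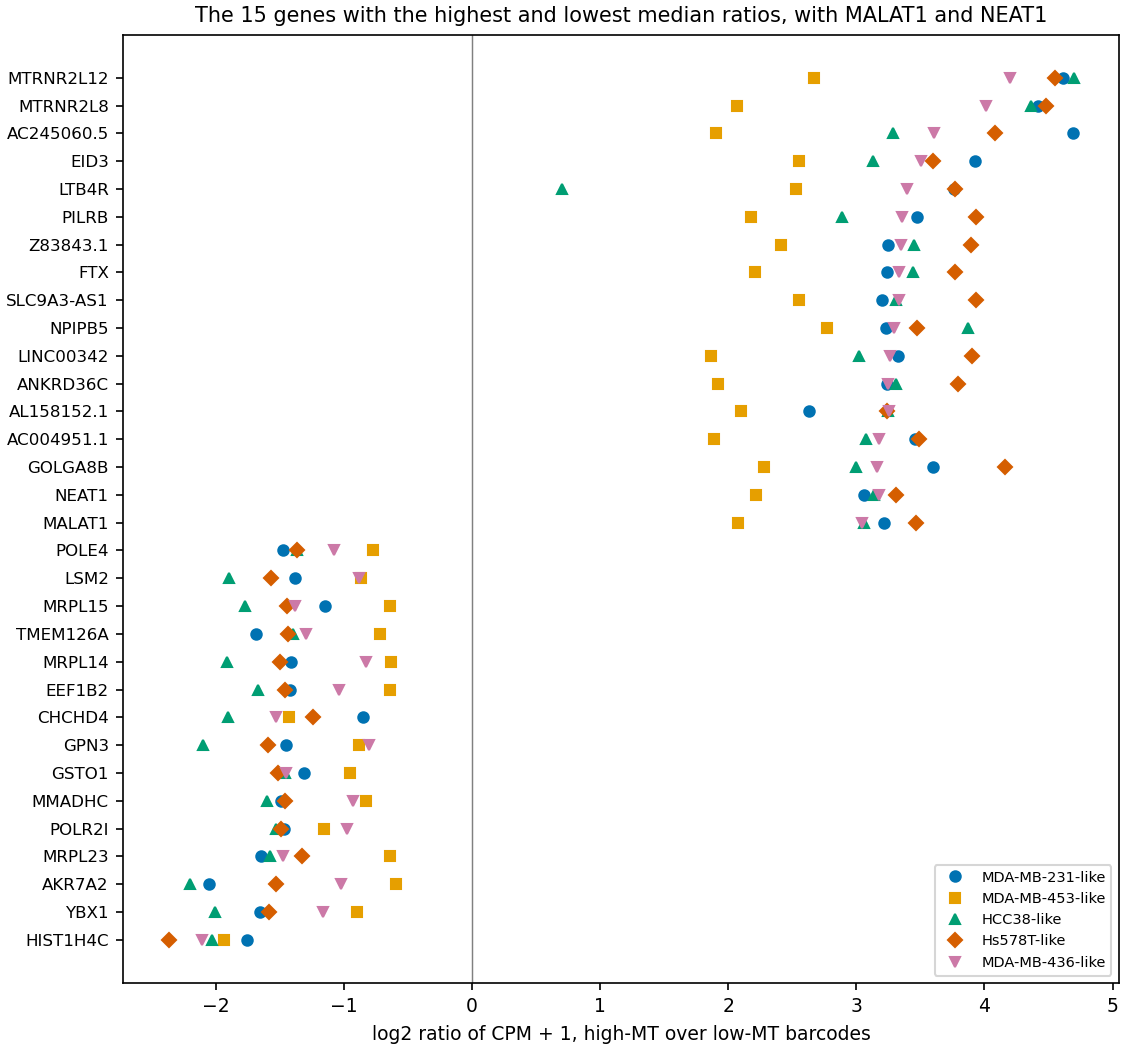
Log2 ratio of CPM + 1 in high-MT over low-MT barcodes for the 15 called genes with the highest and the 15 with the lowest median ratio, with MALAT1 and NEAT1; each point is a line. All points of the upper group lie right of 0 and all of the lower group left of it, and the MDA-MB-453-like points are nearest to 0 for most genes, although HCC38-like barcodes have the lowest LTB4R ratio (0.70).

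Messenger RNAs of the translation machinery were lower. Of 83 cytosolic ribosomal protein genes tested, 0 were called higher and 31 lower (37.3%, against 4.41% of all genes), with a median log2 ratio of -1.01. In single lines the median was between -0.57 in MDA-MB-453-like and -1.35 in Hs578T-like barcodes, and 34 to 83 of the 83 or 84 genes tested were lower. Summed, the ribosomal protein transcripts made up 15.5 to 19.7% of non-mitochondrial UMIs in low-MT and 6.09 to 12.9% in high-MT barcodes. RPL26 had a median log2 ratio of -1.39 and RPS12 one of -1.30, both without a call, because the MDA-MB-453-like ratios were -0.50 and -0.57. RPL8 had -0.64 and was called lower, with 906 to 3430.4 CPM in high-MT and 1410 to 6857 CPM in low-MT barcodes. RPL7L1, a nucleolar paralog and not a subunit of the mature ribosome, had -0.16 and was the member with the ratio nearest 0.

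Translation factors had a median of -0.53 over 38 genes, with 2 higher (5.26%, against 20.1% of all genes) and 5 lower (13.2%, against 4.41%). EEF1B2, the exchange factor subunit of elongation factor 1, was lower (-1.42), as was BTF3 (-1.30), a subunit of the nascent chain complex. EIF4A2 was higher (1.30), and so was EIF3C (1.96), which shares reads with a near-identical copy and is uncertain. YBX1 (chromosome 1, 42682427 to 42702349, plus strand), an abundant protein that coats cytoplasmic messenger RNA, was among the genes with the lowest ratios. Its level was 529 against 1672 CPM in MDA-MB-231-like, 548 against 1020.2 in MDA-MB-453-like and 557 against 2246 in HCC38-like barcodes. It was 664 against 1997 in Hs578T-like and 1168 against 2617 in MDA-MB-436-like barcodes, a median 3.01-fold lower level.

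Transcripts of the mitochondrial genome are high here by choice of the members, and those of the nuclear genes for mitochondrial proteins were not. Of 77 nuclear genes of the respiratory chain, 28 were lower (36.4%, against 4.41% of all genes) and 0 higher (against 20.1%), with a median log2 ratio of -0.92, and NDUFB11, a subunit of complex I, was lower with -1.32. COX5A, a subunit of cytochrome oxidase, had -1.27 without a call. Of 77 mitochondrial ribosomal proteins, 22 were lower (28.6%) and 0 higher (median -0.81), with MRPL23 (-1.48), MRPL14 (-1.41) and MRPL15 (-1.38) among the lowest of all genes. CHCHD4 (-1.43), an import factor of the space between the mitochondrial membranes, and TMEM126A (-1.39), a membrane protein of mitochondria, were also called lower. At the other end of the respiratory chain list, SDHA had 0.36 and NDUFS1 0.22, without a call.

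Genes of soluble cytosolic proteins were mostly on the lower side. Of 42 cytosolic enzymes and carriers, 11 were lower (26.2%, against 4.41% of all genes) and 1 higher (2.38%, against 20.1%), with a median of -0.68, and TXN, the thioredoxin that reduces cytosolic proteins, fell by 1.35 on the log2 scale. The higher member was FASN (1.08), the fatty acid synthase. The ferritin chains FTH1 (-1.41) and FTL (-1.50) had no call, because the MDA-MB-453-like ratios were -0.29 and 0.11. Of 35 proteasome genes, 8 were lower (22.9%) and 0 higher (median -0.59), led by PSMB6 (-1.23). Of 40 cytoskeleton genes, 4 were lower (10.0%) and 2 higher (5.00%), with a median of -0.62, and the actin crosslinker FLNA (1.08) was among the higher ones. For heat shock chaperones the median over 19 genes was -0.42, with no call in either direction.

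Histone transcripts, which lack poly(A) tails when made in S phase, were tested for 15 genes, and 2 were lower (13.3%, against 4.41% of all genes) and 0 higher (against 20.1%), with a median of -0.70. HIST1H4C (chromosome 6, 26103876 to 26104310, plus strand) had the lowest median ratio of all genes called. It stood at 260 against 877 CPM in high-MT and low-MT MDA-MB-231-like barcodes, 153 against 590.01 in MDA-MB-453-like, 157 against 644 in HCC38-like, 239 against 1238 in Hs578T-like and 211 against 912 in MDA-MB-436-like barcodes. The median level was 4.09-fold lower, all 5 high-MT values lay under all 5 low-MT values, and this was the only gene past 2-fold in all 5 lines on the lower side. The other called member was H2AFZ (-1.16), a histone variant that is made outside S phase too. Genes of the S-phase entry list (G1/S, 43 tested) had a median of -0.13 with 1 higher (2.33%) and 2 lower (4.65%), and those of the G2/M list (52 tested) -0.12 with 0 higher and 1 lower (1.92%). Against the low-MT barcodes nearest in depth both medians turned, to 0.21 and 0.34, where the median of all genes was 0.29. Those barcodes were still deeper in every line, with medians of 12536 against 1428 non-mitochondrial UMIs in the MDA-MB-231-like suffix.

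Further genes with the lowest ratios were AKR7A2 (-1.53), an aldehyde reductase, POLR2I (-1.47), a subunit of RNA polymerase II, and MMADHC (-1.46), which takes part in cobalamin metabolism. They also included GSTO1 (-1.45), a glutathione transferase, GPN3 (-1.45), LSM2 (-1.38), which binds spliceosomal RNA, and POLE4 (-1.37), a small subunit of DNA polymerase epsilon.

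**Figure D4:**
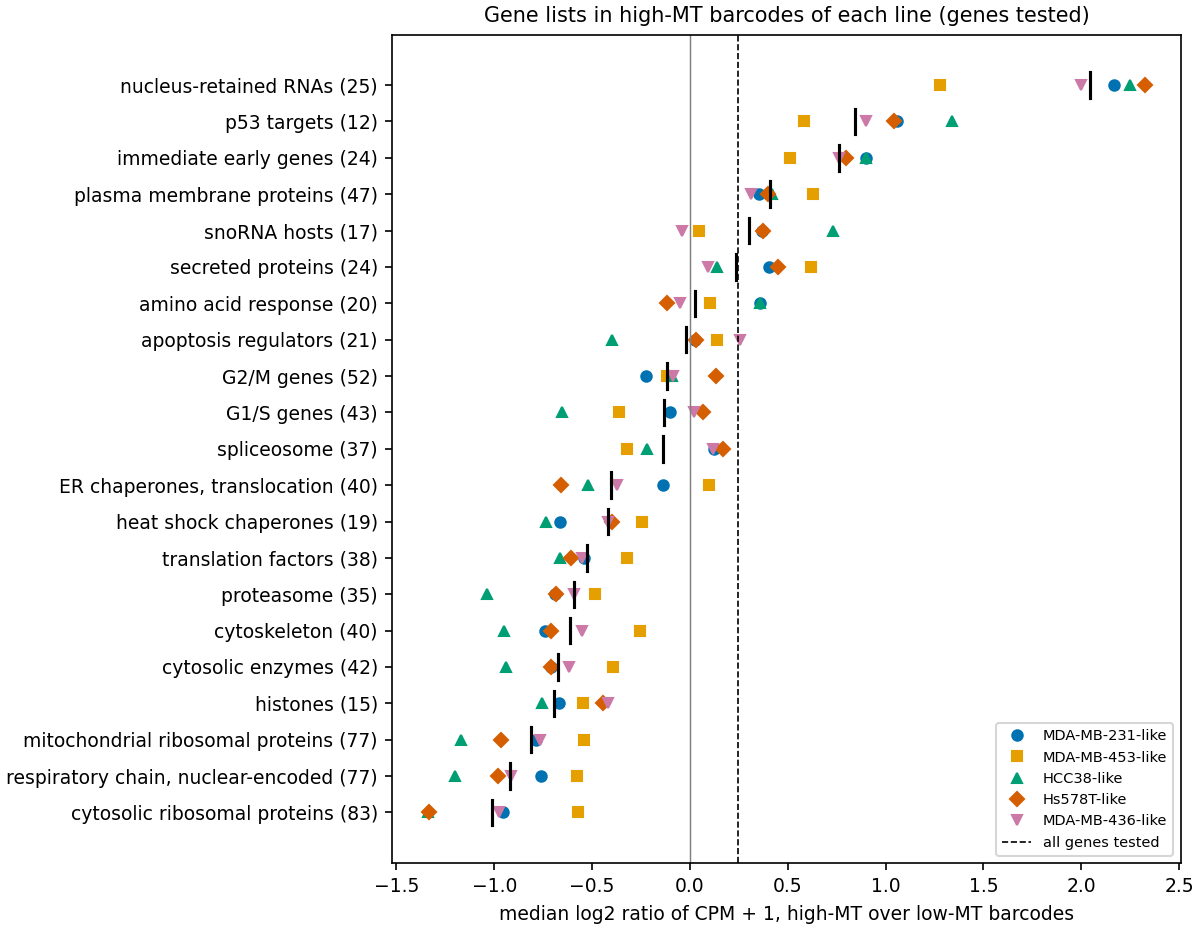
Median log2 ratio of CPM + 1 in high-MT over low-MT barcodes for 21 gene lists, with the number of genes tested in parentheses; each point is a line, the black bar is the median over genes of their 5-line median, and the dashed line is the same median over all genes tested (0.25). Nucleus-retained RNAs are at the right end (2.05) and cytosolic ribosomal proteins at the left end (-1.01), with secreted proteins (0.24) at the level of all genes.

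The secreted proteins tested in all 5 lines had about the median of all genes, and in single lines their median was above it. Of 80 listed genes, 24 were tested in all 5 lines, 3 were higher (12.5%, against 20.1% of all genes) and 0 lower, and the median log2 ratio was 0.24 against 0.25 for all genes (-0.024 after centring, -0.047 at a threshold of 50%, and 0.66 without the MDA-MB-453-like suffix). LAMA5, a laminin chain of basement membranes, stood at 46.1 to 129 CPM in high-MT and 11.3 to 24.9 CPM in low-MT barcodes, with a median log2 ratio of 2.52 and no overlap. VEGFA, the vascular growth factor, was also higher (1.10), whereas TNC, a matrix glycoprotein, had 1.45 without a call. At the other end B2M, the small subunit of HLA class I, had -0.85, and CST3, a secreted protease inhibitor, had -0.84, both without a call. Most secreted genes are expressed in a few lines only. In single lines 33 to 64 of them were tested, 18 to 34 were higher and 0 to 10 lower, where 31.1 to 47.8% of all genes were higher and 7.93 to 22.5% lower. The higher ones were 34 of 64 in MDA-MB-231-like, 18 of 33 in MDA-MB-453-like, 32 of 61 in HCC38-like, 34 of 64 in Hs578T-like and 30 of 60 in MDA-MB-436-like barcodes. The median was between 0.62 and 0.77, where all genes tested in those lines had medians of 0.25 to 0.53. A gene could pass the filter of a single line only through the class where it was high. Markers of Hs578T were higher for 5 of 5 tested in HCC38-like and 3 of 6 in MDA-MB-436-like barcodes of its capture, and 0 were lower. Among them COL3A1 stood at 56.8 against 9.28 CPM in HCC38-like barcodes. The part of the filter and of RNA from other cells in the single-line medians was not tested.

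The markers of Hs578T, matrix genes among them, were split within that line. COL1A1, a chain of type I collagen, stood at 2283 CPM in high-MT and 869 CPM in low-MT Hs578T-like barcodes, a ratio of 2.63. COL3A1, of type III collagen, stood at 553 and 257 CPM (ratio 2.15), and the collagen-binding integrin ITGA11 at 511 and 118 CPM (4.32). In the same barcodes PRRX1, a transcription factor, had a ratio of 0.993, CDH2, a cadherin, 0.826, TWIST1, a transcription factor, 0.819 and THY1, a small surface glycoprotein, 0.690. All 7 markers stood highest in the Hs578T-like suffix among the high-MT barcodes of the 5 lines too.

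Markers of the other lines were split in the same manner. In MDA-MB-453-like barcodes FGFR4, a growth factor receptor, stood at 886 CPM in high-MT and 426 CPM in low-MT barcodes and TFAP2B, a transcription factor, at 787 and 477 CPM. In MDA-MB-436-like barcodes IL1B, a cytokine made without a signal peptide, stood at 76.7 and 239 CPM. There the receptor IL13RA2 stood at 30.9 and 87.2 CPM, and PRAME at 88.3 and 90.1 CPM. In HCC38-like barcodes the integrin chain ITGB6 stood at 127 and 53.4 CPM, and the serpin SERPINB5 at 51.4 and 78.9 CPM, on 47 and 19 high-MT UMIs. In MDA-MB-231-like barcodes CD74, the chaperone of HLA class II, stood at 97.3 and 78.2 CPM and ESAM, an adhesion molecule, at 16.2 and 22.9 CPM, on 48 and 8 UMIs.

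Plasma membrane proteins had 14 of 47 genes higher (29.8%, against 20.1% of all genes) and 0 lower, with a median log2 ratio of 0.41. The median was 0.19 after centring and turned to -0.079 among genes of at least 50 CPM. PLXNB2, a semaphorin receptor, stood at 70.6 to 184 CPM in high-MT and 8.83 to 70.3 CPM in low-MT barcodes and had a median log2 ratio of 2.04. The growth factor receptors IGF1R (1.81) and ERBB2 (1.63) were also higher. ERBB2 is a marker of BT-474 (939 CPM in its low-MT barcodes), which shares a capture with the MDA-MB-231-like suffix, where ERBB2 stood at 262 against 37.1 CPM. The other 8 BT-474 markers were also higher there, among them TFF3 (128 against 28.3 CPM), TFF1 (73.0 against 28.4), GRB7 (42.6 against 4.99), IKZF3 (22.3 against 2.24) and PSCA (12.2 against 2.33), and their part in the ERBB2 value was not tested. In the 3 lines of the other capture, without BT-474, ERBB2 stood at 67.6 against 25.1, 29.4 against 8.81 and 25.9 against 6.84 CPM. CAV1, the coat protein of caveolae, had -1.24, TNFRSF12A -0.74 and the tetraspanin CD63 -0.71, all without a call. CAV1 was higher in MDA-MB-453-like barcodes (42.5 against 26.5 CPM), where its level was low, and lower in the other 4 lines. In single lines the membrane list had medians between 0.40 and 0.65, where all genes tested in those lines had 0.25 to 0.53. The list lay below all genes in MDA-MB-436-like barcodes (0.40 against 0.46) and above them in the other lines. Here too a gene could pass the filter of a single line only through the class where it was high.

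Genes of the endoplasmic reticulum, where both groups are made, had a median of -0.40 over 40 genes, with 0 higher (against 20.1% of all genes) and 1 lower (2.50%, against 4.41%). The lower member was SEC61B (-1.08), a small subunit of the translocation channel. SEC61A1, the large channel subunit, had 0.73 and the chaperone HYOU1 0.82, both without a call.

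Splicing factors were split, with 7 higher (18.9%, against 20.1% of all genes) and 6 lower (16.2%, against 4.41%) of 37 (median -0.14). HNRNPH1 (1.60), which binds nascent RNA, was among the higher ones, and the transcripts of the small core proteins SNRPD1 (-1.07), SNRPE (-0.98) and SNRPG (-0.97) were lower. Host transcripts of small nucleolar RNAs were split too, with 2 of 17 higher (11.8%) and 1 lower (5.88%), among them TAF1D (1.57) higher and SNHG6 (-0.98) lower. Of 24 immediate early genes, whose transcripts are made quickly and decay quickly, 7 were higher (29.2%, against 20.1% of all genes) and 0 lower, and the median of 0.76 was 0.46 after centring. FOSB stood at 175 to 389 CPM in high-MT and 25.7 to 125 CPM in low-MT barcodes (median log2 ratio 2.40), and KLF6 (2.06) and ATF3 (1.90) were also higher, whereas JUND had 0.23 without a call. Of 12 targets of p53, 5 were higher (41.7%, against 20.1%) and 0 lower, and the median of 0.85 was 0.52 after centring and 0.51 when scaled without ribosomal proteins and MALAT1. The called members included the kinase PLK3 at 2.28, the nuclease AEN at 1.97 and FBXW7 at 1.73. CDKN1A, the cell cycle inhibitor that p53 induces, had -0.16, and BAX, a pore-forming p53 target, -0.60, both without a call.

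The ratio also went with the length of the coding sequence. Over 6920 protein-coding genes, sorted by coding length in GENCODE 29 and divided into 5 groups of equal size, the median log2 ratio was -0.67, -0.16, 0.30, 0.58 and 0.97 from the shortest to the longest group. The shortest group (72 to 678 bases) had 33 genes higher and 213 lower of 1384, and the longest (2541 to 22776 bases) 569 higher and 2 lower. Across genes, which are not independent, Spearman's rho with coding length was 0.63 (0.52 to 0.64 in single lines). It was 0.57 with transcript length, 0.46 with the number of exons, 0.38 with the span of the gene, 0.29 with the length of the 3′ UTR and 0.02 with GC content. Coding length also went with a lower level in low-MT barcodes (rho -0.35), so length and abundance are not separate here.

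**Figure D5:**
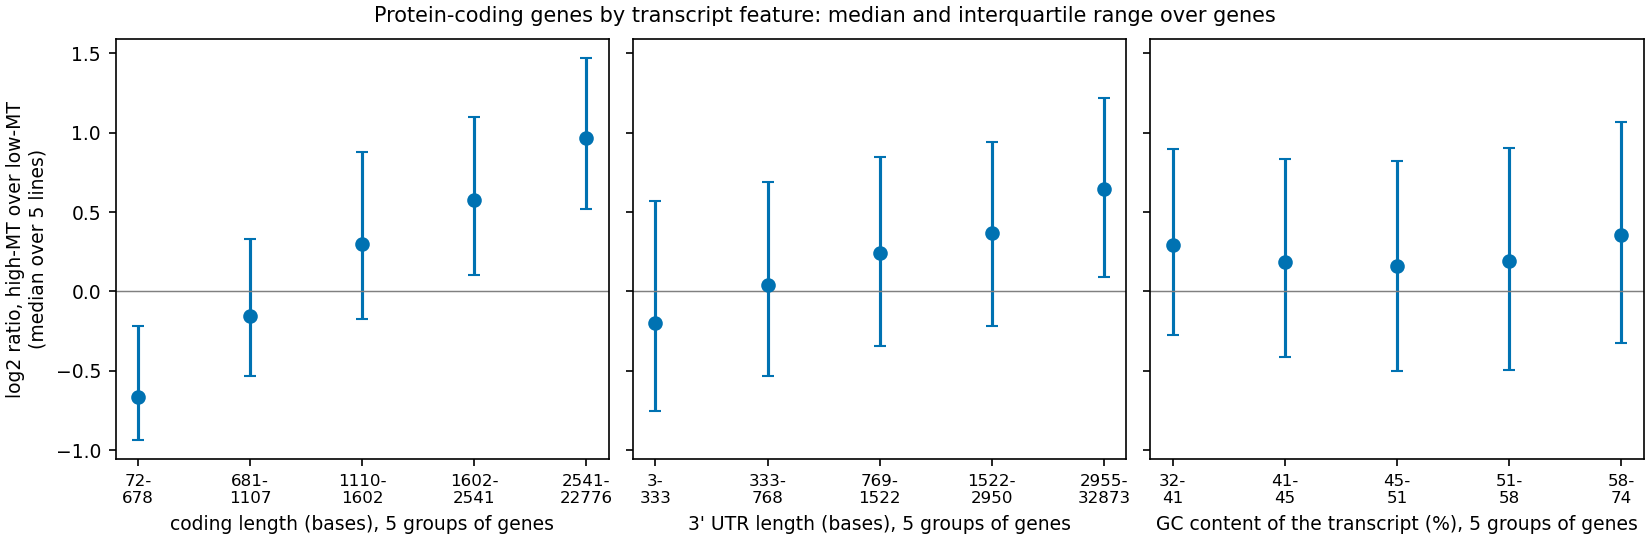
Median (point) and interquartile range (bar) over protein-coding genes of the log2 ratio of CPM + 1 in high-MT over low-MT barcodes, for 5 groups of genes of equal size by coding length, 3′ UTR length and GC content of the transcript. The median goes from -0.67 to 0.97 along coding length and from -0.20 to 0.65 along 3′ UTR length, and stays between 0.16 and 0.35 along GC content.

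Set beside genes of the same group of coding length, some lists moved towards 0 and others did not. The 14 coding members of the nuclear RNA list lay a median of 1.47 above their group, and 14 of 14 were above it. The immediate early genes lay 0.95 above and the p53 targets 0.81 above. The ribosomal proteins, of which 68 of 83 were in the shortest group, lay 0.40 below (-0.40), with 82 of 83 below. The respiratory chain list lay at -0.31 and the mitochondrial ribosomal proteins at -0.35. The proteasome (-0.65), cytosolic enzymes (-0.62), translation factors (-0.59) and heat shock chaperones (-0.82) were further below their groups. So were the G1/S genes (-0.56) and the G2/M genes (-0.45). Secreted proteins differed from their groups by 0.13 and plasma membrane proteins by 0.01.

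Among genes that were not tested in all 5 lines, those with the highest and lowest ratios in a line are given as a description. Several reached the mean of 50 CPM only through the class where they were high, so their wide differences are in part set by that filter. KCNQ1OT1, a nuclear antisense RNA of an imprinted locus, stood at 278 against 29.2 CPM in high-MT and low-MT MDA-MB-231-like barcodes and at 616 against 49.0 CPM in HCC38-like barcodes. MEG8, an imprinted noncoding RNA, stood at 494 against 32.7 CPM in Hs578T-like barcodes, and SNHG14, of another imprinted locus, at 391 against 39.0 CPM in MDA-MB-436-like barcodes. Among coding genes, IGFN1 stood at 2763 against 176 CPM in MDA-MB-436-like and at 208 against 8.85 CPM in Hs578T-like barcodes. COL7A1, a long collagen, stood at 105 against 9.46 CPM in MDA-MB-231-like barcodes.

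At the lower end were genes of varied function. HERC5, a ubiquitin-like ligase, stood at 18.9 against 102.7 CPM in HCC38-like barcodes, on 7 high-MT UMIs, and AKR1C3, a steroid reductase, at 26.1 against 96.2 CPM in Hs578T-like barcodes. SRGN, a short proteoglycan of secretory granules, stood at 102 against 505 CPM in Hs578T-like barcodes, and SELENOM, a small selenoprotein of the endoplasmic reticulum, at 126 against 425 CPM. FABP5, a fatty acid binding protein, stood at 86.5 against 423 CPM in HCC38-like barcodes, and S100A1 at 16.2 against 92.5 CPM, on 6 high-MT UMIs. G0S2, an inhibitor of fat breakdown, stood at 54.7 against 213 CPM in MDA-MB-231-like barcodes. The linker histones HIST1H1B and HIST1H1D were lower in both MDA-MB-453-like (28.1 against 100.4 and 142 against 294 CPM) and MDA-MB-436-like barcodes (28.1 against 85.1 and 38.1 against 122 CPM).

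The same threshold picked other barcodes in the BT-474-like suffix, where the median mitochondrial share was 14.5% in low-MT barcodes (5.84 to 9.87% in the other 5 suffixes) and 29.4% in high-MT barcodes (46.1 to 59.8%). It held 687 high-MT barcodes, with medians of 11832 non-mitochondrial UMIs against 24250 in low-MT ones, a 2.05-fold difference. Barcodes of 20 to 30% supplied 84.4% of its high-MT UMIs. Of the 1416 genes called higher in the 5 lines, 1220 were measured there and 195 were past 1.5-fold at the 20% threshold, and 3 of the 309 measured among the lower genes, beside 226 of 6615 in either direction over all genes. At a threshold of 30%, 1245 of 1359 and 283 of 308 were past 1.5-fold in the same direction, beside 3501 of 6805 in either direction over all genes, and the MALAT1 log2 ratio was 2.66 instead of 0.88.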

How the data were processed

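The deposited values are raw UMI counts, not normalized, of 36601 genes and 12 oligos in each barcode, in a single matrix. Per the file headers it came from Cell Ranger 6.1.2. The submitters' processing notes name the build GRCh38 (hg38). For cell calling, oligo assignment and strand, the settings were not given in the sources used here. The matrix held 513.7 M gene UMIs, with a median of 26552 per barcode. Both listed samples, the gene expression and oligo libraries, are read from this matrix, so there is 1 sample and no p-value was computed.

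Counts were summed per class and suffix and scaled to 1000000 non-mitochondrial UMIs, and log2 ratios used a pseudocount of 1 CPM. Intervals at 95% are exact (Poisson, conditional binomial or Clopper-Pearson). No doublet caller was run. Named genes were the 15 highest and 15 lowest called genes, the 3 highest and 3 lowest tested members of each list, and per suffix the 5 highest and 5 lowest among genes of at least 50 CPM that were not tested in all 5. All members of the nuclear RNA list, the line markers, and the genes named from the S-phase and endoplasmic reticulum lists were read as well, and which of them to print was chosen after their values were seen. Members, lists and markers were chosen with earlier results of these data known. The line-specific genes (20-fold, 50 CPM), the transcript features, the 80% bin limit and the sets of 20 to 80% and 30 to 80% were chosen after seeing the data. Alternatives covered the threshold, barcode filters, weighting, depth, scaling, pseudocount, fold and each line left out. Coordinates, gene classes and lengths are from GENCODE 29, which matched 7045 of 7047 genes. The procedure was tested on simulated data. Python 3.11.15, numpy 2.4.6, scipy 1.17.1, pandas 2.3.3 and matplotlib 3.10.9 were used. Some results are not reported here.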

Additional observations from a re-analysis of the deposited data

How the results depend on the processing

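The classes were compared within each line, where both come from the same culture. The labels carry no replicate numbers and name 1 culture of each line. Barcodes are not replicates, and no test gave any of these results. At a threshold of 10% on the mitochondrial share, 1 gene was higher and 0 lower, and at 15% 236 and 2. At 30% 933 genes were lower, at 50% 719, over barcodes of 30 to 80% 986, and after centring 773. A filter of 2 CPM gave 2291 higher and one of 50 CPM gave 224, and at 2-fold 624 were higher and 1 lower. With each suffix left out in turn, 1489 to 2161 genes were higher and 329 to 687 lower, the highest values being those without the MDA-MB-453-like suffix. In each of these sets of 4 lines all 1416 and 311 genes were still called, as follows from the rule.

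List medians that moved by more than the spread between lines were these. At a threshold of 10% the medians were 0.46 for nuclear RNAs, -0.087 for ribosomal proteins, -0.099 for mitochondrial ribosomal proteins, -0.062 for the respiratory chain, -0.092 for translation factors, -0.075 for cytosolic enzymes, 0.12 for membrane proteins, -0.0057 for endoplasmic reticulum proteins, -0.085 for the cytoskeleton, -0.14 for histones, 0.18 for immediate early genes, -0.090 for heat shock chaperones, 0.084 for p53 targets and -0.094 for the proteasome. At 15% they were -0.56 for ribosomal proteins, -0.47 for mitochondrial ribosomal proteins, -0.47 for the respiratory chain, -0.34 for translation factors, -0.40 for cytosolic enzymes, 0.26 for membrane proteins, -0.33 for histones, 0.56 for immediate early genes and 0.41 for p53 targets. At 30% they were -1.56 for ribosomal proteins, -1.16 for mitochondrial ribosomal proteins, -1.41 for the respiratory chain, -0.72 for translation factors, -1.04 for cytosolic enzymes, -0.72 for heat shock chaperones and -0.90 for the proteasome. At 50% they were -1.48 for ribosomal proteins, -1.15 for mitochondrial ribosomal proteins, -1.25 for the respiratory chain, -0.69 for translation factors, -1.01 for cytosolic enzymes, -0.047 for secreted proteins, -0.82 for endoplasmic reticulum proteins, 0.92 for immediate early genes, -0.77 for heat shock chaperones, 1.34 for p53 targets and -0.88 for the proteasome.

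Over barcodes of 30 to 80% the medians were -1.61 for ribosomal proteins, -1.17 for mitochondrial ribosomal proteins, -1.42 for the respiratory chain, -0.74 for translation factors, -1.05 for cytosolic enzymes, -0.92 for the cytoskeleton, -0.77 for heat shock chaperones and -0.89 for the proteasome. Centred ratios gave -1.11 for mitochondrial ribosomal proteins, -1.20 for the respiratory chain, -0.87 for translation factors, -0.92 for cytosolic enzymes, -0.024 for secreted proteins, 0.19 for membrane proteins, -0.88 for the cytoskeleton, -0.91 for histones, 0.46 for immediate early genes, -0.75 for heat shock chaperones, 0.52 for p53 targets, -0.36 for apoptosis, -0.36 for G2/M genes and -0.88 for the proteasome. The 2 CPM filter gave 0.57 for secreted proteins, -0.19 for histones and 0.30 for apoptosis, and the 50 CPM filter -0.079 for membrane proteins. Scaling without ribosomal proteins and MALAT1 gave 0.51 for p53 targets, and the mean over barcodes gave 0.019 for G2/M genes. Depth-matched low-MT barcodes gave -0.38 for histones, 0.21 for G1/S and 0.34 for G2/M genes, although within 10% of the depth only 20, 53, 66, 20 and 55 barcodes of suffixes 2 to 6 could be matched. With each suffix left out, the secreted median was 0.18 to 0.66 and the histone median -0.69 to -0.48. The cause of these shifts was not tested.

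The fold difference in non-mitochondrial UMIs at a threshold of 10% was 2.28 in MDA-MB-231-like, 1.13 in MDA-MB-453-like, 1.62 in HCC38-like and 4.66 in MDA-MB-436-like barcodes, and at 15% 1.77 in MDA-MB-453-like barcodes. At 50% it was 31.4, 12.2, 43.8, 19.2 and 19.7 in suffixes 2 to 6, and with the filter of 1000 UMIs and 500 genes 11.4 in MDA-MB-231-like barcodes. Genes detected turned in all 5 lines at equal depth, with low-MT over high-MT ratios of 0.946, 0.937, 0.925, 0.863 and 0.860 in suffixes 2 to 6. Among the named genes TXN alone turned, to 0.0087 at the 10% threshold. Depth limits single genes most: a gene called higher had as few as 5 high-MT UMIs in a line, and a gene called lower as few as 2.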

Other observations

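The make-up of the mitochondrial transcripts themselves differed between the classes. The share of MT- UMIs in MT-ATP6, MT-ATP8, MT-ND3, MT-ND4L and MT-ND6 was higher in high-MT barcodes of all 5 lines. MT-ND6, the gene read from the light strand, had 1.14 to 1.89 times its low-MT share, and MT-ATP6, an ATP synthase subunit, 1.05 to 1.31 times. MT-CO1 (0.831 to 0.919 times) and MT-ND4 (0.854 to 0.971 times) had a lower share in all 5 lines. These values describe the genes that chose the barcodes.

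Genes of the amino acid response had a median log2 ratio of 0.02 over 20 genes, with 2 higher (10.0%, against 20.1% of all genes) and 0 lower. The higher members were the transporters SLC7A5 (1.61) and SLC7A11 (1.22), and ATF4, the factor that induces them, had 1.08 without a call. Regulators of apoptosis had a median of -0.02 over 21 genes, with 2 higher (9.52%) and 1 lower (4.76%), among them MCL1, a survival factor with a short-lived transcript, higher (1.24) and CYCS, cytochrome c, lower (-0.89).

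Some genes differed in direction between lines, and in these cases another line of the same capture expressed the gene at a higher level. NUPR1, a small stress protein, stood at 118 CPM in high-MT and 20.04 CPM in low-MT MDA-MB-231-like barcodes, at 342 against 560 CPM in MDA-MB-453-like barcodes of the same capture, and lower in high-MT barcodes of the other 3 lines too. S100A6 stood at 464 against 288 CPM in MDA-MB-453-like and at 6458 against 14266 CPM in MDA-MB-231-like barcodes. The part of RNA from other cells in these values was not tested.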
